A study of Homo sapiens with 12 samples.

Results

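Long intergenic noncoding RNAs with a LINC symbol were described in SK-UT-1 cells, an established human uterine leiomyosarcoma (uLMS) cell line, after inhibition of the BET bromodomain proteins. The expression values covered 22784 gene symbols, of which 667 were LINC followed by a number. The 186 LINC RNAs described here had a normalized count of at least 10 in at least 3 of the 10 libraries, and they are part of the 14839 symbols of any kind that met this limit. The members were thus chosen on their measured levels, which are given below as a description. The other 481 LINC symbols were detected weakly: 432 of them stayed under 10 normalized counts in every library, 49 reached 10 in 1 or 2 libraries, the highest value among them was 25.2, and 0 symbols were at 0 in all libraries. The third-highest library decides on membership, and it stood at 10.004 for LINC00862 and LINC01447 and at 10.01 for LINC02904, just inside the limit. It stood at 9.89 for LINC02102, 9.84 for LINC01391 and 9.79 for LINC02572, just outside it.

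Total RNA was sequenced from SK-UT-1 cells exposed for 48 h to 5 µM JQ1, to 5 µM I-BET 762 or to the DMSO vehicle, and no other treatment or genetic change is given for any group. The study asked if BET proteins play a part in abnormal uLMS growth, and by what route. Its RNA-seq part asked how the uLMS transcriptome changes when BET proteins are inhibited. Of 12 labelled samples, 4 per group, 10 libraries were analysed here: 3 DMSO (replicates 13, 14 and 15), 4 JQ1 (17, 18, 19 and 20) and 3 I-BET 762 (21, 22 and 23). All groups came from 1 cell line, and nothing given here says that the libraries of a group came from separate cultures, so p-values measure the spread between these libraries, which may be technical.

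A LINC symbol names a long RNA that encodes no recognised protein and that lies, at least in part, between protein-coding genes. Many of these RNAs are made by RNA polymerase II from promoters or enhancers, are spliced and carry a cap, and are found in one or a few cell types at low copy number. BET proteins bind acetylated lysines of histones at active promoters and enhancers and help polymerase II leave its paused state, while JQ1 and I-BET 762 are small molecules that fill the acetyl-lysine pocket of their bromodomains.

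Between 35564586 and 39658989 reads fell on genes per library, and a gene with 0 reads may have had a true level of up to 3 reads by counting error alone, worth 2.73 to 3.30 normalized counts here. HEXIM1, which is known to rise under BET inhibitors, had a mean of 1627 normalized counts with DMSO, 4718 with JQ1 and 3370.4 with I-BET 762. Of 9 smooth muscle genes listed, 8 were tested, and their summed level was 20923 to 21518 normalized counts with DMSO, 10871 to 11519 with JQ1 and 12193 to 12764 with I-BET 762. MYH11, the smooth muscle myosin heavy chain, was not in the values used here, and the hormone receptors ESR1 and PGR stayed under 10 in every library. Of the same uterine list, the homeobox genes HOXA10 and HOXA11 and the mesenchymal factor HAND2 were tested and called lower with both inhibitors: the mean of HOXA10 was 230.2 with DMSO, 26.98 with JQ1 and 29.4 with I-BET 762 normalized counts, that of HOXA11 67.04 with DMSO, 3.85 with JQ1 and 7.27 with I-BET 762, and that of HAND2 41.5 with DMSO, 12.9 with JQ1 and 16.1 with I-BET 762. The 5 epithelial markers summed to 1212 to 1271 with DMSO, 511 to 602 with JQ1 and 497 to 544 with I-BET 762, the endothelial markers PECAM1, CDH5 and VWF and the leukocyte marker PTPRC stayed under 10, and CD14 was called between the inhibitors (higher with JQ1 by 0.66 on the log2 scale, limma adjusted p = 0.0387) and not against DMSO. The part of these marker levels in the LINC results was not tested. In bulk RNA, fewer cells of a type and less RNA per cell cannot be told apart.

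Most LINC RNAs were scarce. Over the 10 libraries the mean of a member ran from 5.04 to 1602 normalized counts with a median of 33.7, and 7 members had a mean of 1000 or more. All LINC symbols together took 0.0654% to 0.0691% of the reads on genes with DMSO, 0.0536% to 0.0590% with JQ1 and 0.0574% to 0.0600% with I-BET 762. In this share of reads neither treated group overlapped the DMSO group. This share also depends on the reads of all other genes, and what moved it was not tested. For scale, MALAT1, a nuclear RNA of speckles, had a mean of 149317 normalized counts with DMSO, 320516 with JQ1 and 240975 with I-BET 762. As a sum of normalized counts, the LINC symbols had 23348 to 23815 with DMSO, 22394 to 23389 with JQ1 and 21732 to 22300 with I-BET 762. On that scale the JQ1 and DMSO libraries overlapped. Between replicates, the median SD of a member was 15.0% of its mean with DMSO, 24.2% with JQ1 and 16.9% with I-BET 762. Per kilobase of exon, the scale on which levels of different genes can be set side by side, the members with a gene match ran from 0.789 to 209 normalized counts with a median of 11.8. LINC00205 (209 per kilobase), LINC00958 (209), LINC00641 (196), LINC01963 (124), LINC00910 (108) and LINC00467 (88.2) stood highest.

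These abundant RNAs did not move together. LINC00205, which starts 137 bases from the coding gene POFUT2 on the opposite strand, had 1504, 1533 and 1422 normalized counts in the DMSO libraries, 1671, 1429.7, 1618 and 1716 with JQ1 and 1753, 1708 and 1612 with I-BET 762. Of the JQ1 libraries 3 lay above the DMSO libraries and 1 among them, and the difference from DMSO was 0.11 ± 0.06 (SE, limma adjusted p = 0.129) on the log2 scale with JQ1 and 0.19 ± 0.07 (SE, limma adjusted p = 0.0267) with I-BET 762, under the 1.5-fold limit used here for a differentially expressed gene (DEG). With the libraries rescaled to equal totals, the JQ1 difference of LINC00205 turned to -0.07. LINC00958, described in bladder and other carcinomas, had 931, 882 and 885 normalized counts in the DMSO libraries, 1378, 1442, 1382 and 1431 with JQ1 and 1239.8, 1201 and 1263 with I-BET 762. Every treated library was above every DMSO library, with a log2 fold change of 0.65 ± 0.05 (SE, limma adjusted p = 1.40e-08) with JQ1, a DEG, and 0.46 ± 0.06 (SE, limma adjusted p = 3.07e-06) with I-BET 762, which is under 1.5-fold. With JQ1 it was 0.46 after rescaling to equal totals and 0.58 after rescaling to equal upper quartiles, both also under 1.5-fold. LINC00641 had a mean of 1287 ± 76.1 (SD, n = 3) with DMSO and differed from it by -0.36 with JQ1 and -0.22 with I-BET 762 on the log2 scale, again less than 1.5-fold. LINC01963 fell with both inhibitors, from 611, 592 and 598 normalized counts to 225, 273, 245 and 268 with JQ1 and 377, 367 and 346 with I-BET 762. The 3 groups did not overlap, and the log2 fold change of LINC01963 was -1.25 ± 0.08 (SE, limma adjusted p = 1.66e-09) with JQ1 and -0.72 ± 0.09 (SE, limma adjusted p = 3.70e-06) with I-BET 762.

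With JQ1, 117 of the 186 LINC RNAs were DEGs against DMSO (62.9%), beside 36.1% of all tested symbols. A DEG had a limma adjusted p-value under 0.05 over all 14839 symbols and a fold change over 1.5, on the log2 scale of the normalized count plus 1, which understates the change of low genes. The LINC DEGs were mostly lower: 87 fell (46.8%), beside 22.8% of all tested symbols, and 30 rose (16.1%), beside 13.3%. At 30 to 100 normalized counts the share that fell was close to that of all tested symbols, as given below. The median log2 fold change was -0.53 over the LINC RNAs and 0.01 over all tested symbols. With I-BET 762, 83 LINC RNAs were DEGs (44.6%), beside 26.9% of all tested symbols. Of these, 63 fell, beside 17.9%, and 20 rose, beside 8.96%. Here the median was -0.41 over the LINC RNAs and -0.00 over all tested symbols. The 2 comparisons share the 3 DMSO libraries, and so are not independent of each other. Every JQ1 library was below every DMSO library for 93 LINC RNAs (50% of the 186), beside 34.3% of all tested symbols, and above for 36 (19.4%), beside 34.1%. For I-BET 762 these counts were 87 (46.8%), beside 36.2%, and 34 (18.3%), beside 34.8%. In all, 129 LINC RNAs (69.4%) had no overlap with DMSO under JQ1, beside 68.4% of all tested symbols, and 121 (65.1%) under I-BET 762, beside 71.0%.

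How a member met the level limit bears on these counts. Of the 186 LINC RNAs, 108 had at least 10 normalized counts in every library and 54 in libraries of both treated and DMSO cells. Another 14 met the limit only through the DMSO libraries, 9 only through the treated libraries and 1 only through the JQ1 libraries. Those 24 were thus selected on values that reached the limit on 1 side only, which favours a difference between groups. Of the 9, 2 were called with neither inhibitor. Of the RNAs named in what follows, LINC01419, LINC01608, LINC01647, LINC02603 and LINC00867 met it only through the treated libraries, LINC01447 only through the JQ1 libraries, and LINC00652, LINC00706, LINC00707, LINC01139, LINC01140, LINC01426, LINC01600, LINC01625, LINC02742 and LINC02997 only through the DMSO libraries, so their differences from DMSO are given as a description. Without these 24, 58.6% of the LINC RNAs were DEGs with JQ1 and 40.1% with I-BET 762. The level of a gene also sets how often it is called. In the group with a mean under 30 normalized counts, 69.1% of the 81 LINC RNAs and 49.1% of all 2130 tested symbols were DEGs with JQ1. Between 30 and 100, these shares were 62.3% of 69 LINC RNAs and 58.3% of 1637 symbols, and at 100 or more they were 50% of 36 and 30.3% of 11072. With I-BET 762 the shares in the same order of levels were 44.4%, 53.6% and 27.8% of the LINC RNAs, and 39.3%, 49.8% and 21.1% of all tested symbols. These shares were not tested against each other. The LINC RNAs and all symbols were closest at 30 to 100 normalized counts. The share that fell also went with level. With JQ1, in the same order of levels, 59.3%, 42.0% and 27.8% of the LINC RNAs fell, beside 37.0%, 41.4% and 17.3% of all tested symbols. With I-BET 762 these were 40.7%, 34.8% and 16.7%, beside 29.9%, 35.4% and 13.1%. The median log2 fold change with JQ1 at 30 to 100 was -0.29 for the LINC RNAs and -0.34 for all tested symbols. These values were not tested either.

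**Figure D1:**
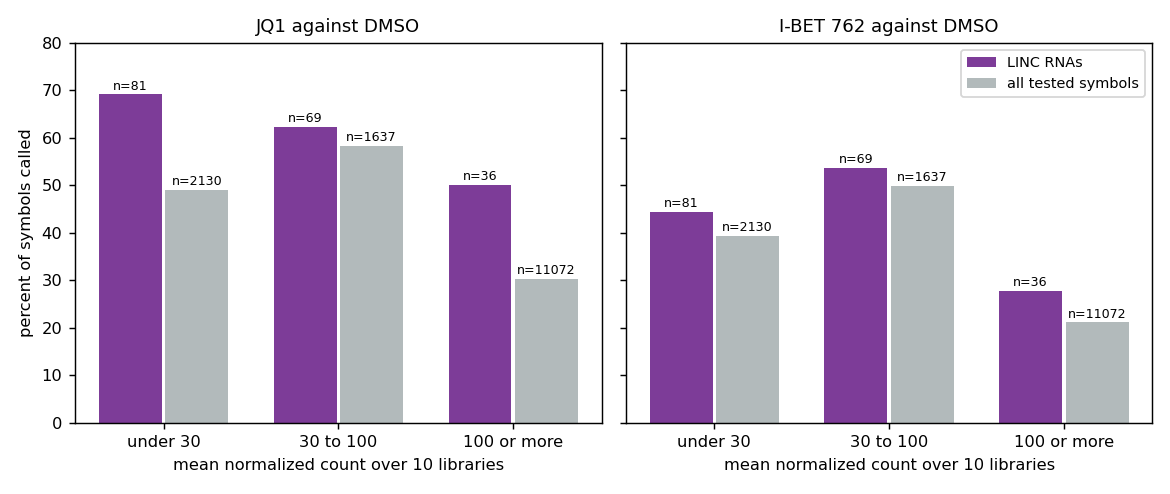
Percent of symbols called as DEGs (y axis) against the mean normalized count over the 10 libraries in 3 ranges (x axis), for JQ1 and I-BET 762 against DMSO; purple bars are LINC RNAs, grey bars all tested symbols, and n is the number of symbols. With JQ1 the LINC bar was 69.1% against 49.1% in the lowest range and 62.3% against 58.3% in the middle range.

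Other noncoding symbols were set beside the LINC RNAs. Of 354 tested antisense symbols, 42.1% were DEGs with JQ1 and 32.8% with I-BET 762. Of 38 host genes of small RNAs, 34.2% and 26.3% were. Among DEGs with JQ1, 73.8% of the antisense symbols, 74.4% of the LINC RNAs and 63.1% of all tested symbols were lower. A list of 30 long noncoding RNAs with other names held 22 that were tested: 3 rose and 5 fell with JQ1, and 2 rose and 4 fell with I-BET 762. In all, 36.4% and 27.3% of the 22 were DEGs, close to the 36.1% and 26.9% of all tested symbols. MALAT1 and NEAT1, the scaffold of paraspeckles, were higher with both inhibitors (log2 fold change 1.10 and 1.17 with JQ1), whereas HOTAIR, transcribed from the HOXC cluster, was lower (-2.49).

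The LINC RNAs were grouped by their calls with each inhibitor, which share the DMSO libraries. A total of 20 LINC RNAs were up with both (10.8% of the 186), beside 7.86% of all tested symbols, and 61 were down with both (32.8%), beside 16.7%. In limma, 0 LINC RNAs were called in opposite directions, 0 had opposite signs at an unadjusted p under 0.05 with both, and limma-voom on the recovered reads also gave 0 and 0. Of the rest, 36 were DEGs with JQ1 alone, 2 with I-BET 762 alone and 67 with neither. Over all 14839 tested symbols these counts were 1709, 342 and 9139, and 0 symbols were called in opposite directions there as well. Among the 81 shared DEGs the absolute log2 fold change was larger with JQ1 in 72, with a median of 1.80 against 1.34 with I-BET 762.

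**Figure D2:**
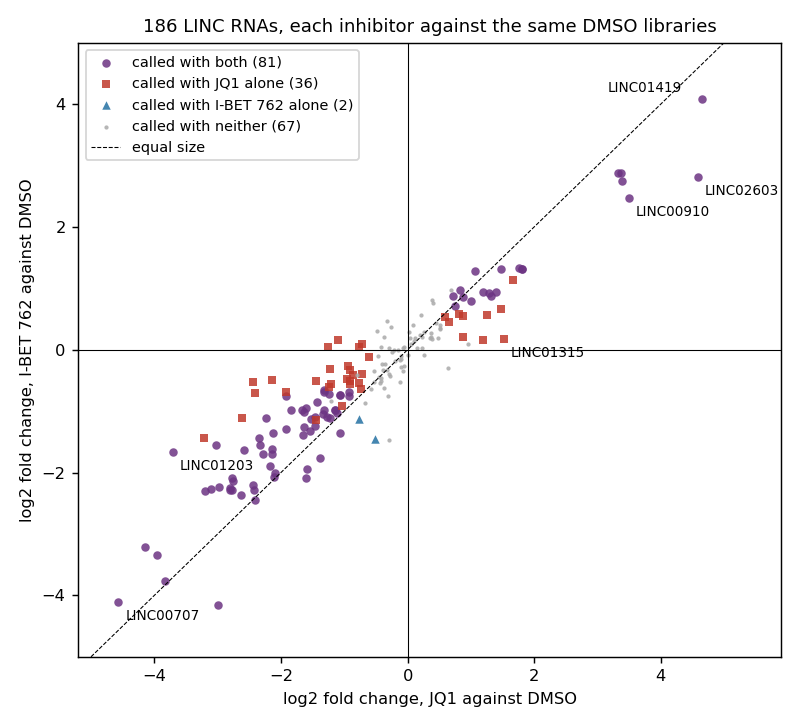
Log2 fold change of each of the 186 LINC RNAs against DMSO with JQ1 (x axis) and with I-BET 762 (y axis), coloured by the comparison in which it was called; the dashed line marks equal sizes. Both axes use the same 3 DMSO libraries, the 81 RNAs called with both lie in the upper right and lower left, and 72 of them are larger with JQ1.

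The largest fitted rise with each inhibitor was that of LINC01419 (ENSG00000253898.1), a spliced RNA of chromosome 8, 83403758 to 83408900, plus strand (GRCh38, Gencode V44), which has been described as higher in hepatocellular carcinoma. It had 0, 1.85 and 1.82 normalized counts in the DMSO libraries, 57.1, 52.2, 47.02 and 41.6 with JQ1 and 29.5, 37.1 and 32.5 with I-BET 762. No DMSO library held more than 2 reads of it, so the fold is a lower bound: at least 17.03-fold higher with JQ1 and at least 11.4-fold higher with I-BET 762, set against the floor of 3 reads in each DMSO library. The fitted log2 fold changes, on the scale of the normalized count plus 1, were 4.65 ± 0.35 (SE) and 4.08 ± 0.37 (SE). Since this RNA met the level limit only through the treated libraries, they are given with no test. With JQ1, LINC02603 was within the SE at 4.59 and has the higher bound, and with 5 added in place of 1 it came first (3.37 against 3.14). All 7 treated libraries stood above all 3 DMSO libraries. JQ1 and I-BET 762 differed by 0.57 (95% interval -0.18 to 1.31, limma adjusted p = 0.250), a difference that did not pass the test and whose interval still reaches beyond 1.5-fold. The start of LINC01419 lay 779029 bases from the nearest coding start, that of RALYL, and none of its 20 exon stretches of 75 bases had an exact copy elsewhere in the genome.

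Another 2 RNAs that were near 0 with DMSO followed. LINC01608 (ENSG00000253877.6) also lies on chromosome 8, 1064601 bases from its nearest coding start, and had 0.969, 1.85 and 0 normalized counts in the DMSO libraries, 13.2, 18.5, 21.01 and 15.2 with JQ1 and 9.84, 15.04 and 11.8 with I-BET 762. This was at least 5.84-fold higher with JQ1 and at least 4.21-fold higher with I-BET 762, and all treated libraries were above all DMSO libraries. LINC02603 (ENSG00000230262.9) had 2.91, 1.85 and 0.910 normalized counts in the DMSO libraries, 64.8, 62.02, 61.03 and 75.1 with JQ1 and 14.8, 19.05 and 22.6 with I-BET 762, at least 22.6-fold higher with JQ1 and at least 6.48-fold higher with I-BET 762. The 3 groups of LINC02603 did not overlap, the I-BET 762 libraries standing between the other two. LINC02603 starts 247 bases from ZNF169, a zinc finger gene read from the opposite strand. ZNF169 itself had 255.9 ± 13.1 normalized counts (SD, n = 3) with DMSO, 144 ± 10.1 (n = 4) with JQ1 and 171 ± 29.2 (n = 3) with I-BET 762, so the neighbour was lower while LINC02603 was higher. Some exons of LINC02603 overlap ZNF169 and MIRLET7A1HG on the opposite strand, and since the strand setting of the read counting is not stated, such counts are uncertain.

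LINC00910 (ENSG00000188825.16, chromosome 17, 43338741 to 43389226, minus strand) had the largest rise with JQ1 among LINC RNAs with a mean of 100 or more normalized counts. It had 214, 162 and 169 normalized counts in the DMSO libraries, 2019.6, 1954, 2242 and 1975 with JQ1 and 984, 959 and 1074 with I-BET 762. The 3 groups were far apart relative to their spread, with log2 fold changes of 3.50 ± 0.09 (SE, limma adjusted p = 3.45e-14) with JQ1 and 2.47 ± 0.09 (SE, limma adjusted p = 9.00e-12) with I-BET 762. An exon of LINC00910 overlaps RNU2-4P, a pseudogene of the spliceosomal U2 RNA, on the same strand, so that reads of these genes cannot be fully separated. LINC02432 (ENSG00000248810.4, chromosome 4) had 14.5, 20.3 and 30.03 normalized counts in the DMSO libraries, 199, 259, 228 and 226 with JQ1 and 128, 156 and 153 with I-BET 762. It overlapped no other gene, all groups were apart, and its log2 fold changes were 3.39 ± 0.19 (SE, limma adjusted p = 2.24e-10) and 2.75 ± 0.20 (SE, limma adjusted p = 1.43e-08).

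The remaining risers were at lower levels. LINC01647, on chromosome 1, had 5.81, 7.40 and 9.10 normalized counts in the DMSO libraries, 112, 101, 76.03 and 59.8 with JQ1 and 55.1, 60.2 and 64.97 with I-BET 762. Its JQ1 libraries spread over a wide range that reached into that of the I-BET 762 libraries, and all treated libraries were above those of DMSO. LINC02166, which lies within CDK10, a cyclin-dependent kinase gene read from the other strand, had 10.7, 8.32 and 12.7 normalized counts in the DMSO libraries, 34.1, 26.1, 36.02 and 28.4 with JQ1 and 27.6, 38.1 and 19.7 with I-BET 762. LINC00867, which starts 891 bases from FAM204A in a head-to-head arrangement, had 2.91, 1.85 and 6.37 normalized counts in the DMSO libraries, 15.4, 14.1, 8.004 and 20.3 with JQ1 and 11.8, 7.02 and 11.8 with I-BET 762. Some exons of LINC00867 overlap FAM204A on the opposite strand, so its counts are uncertain in the same way as those of LINC02603. FAM204A had a mean of 2629 normalized counts with DMSO. For LINC00867, the I-BET 762 change rests on few reads. Its log2 fold change was 1.33 ± 0.46 (SE), given with no test because the level limit was met only through the treated libraries. It did not stay among the shared DEGs without DMSO replicate 14, without I-BET 762 replicate 21 or without I-BET 762 replicate 23.

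**Figure D3:**
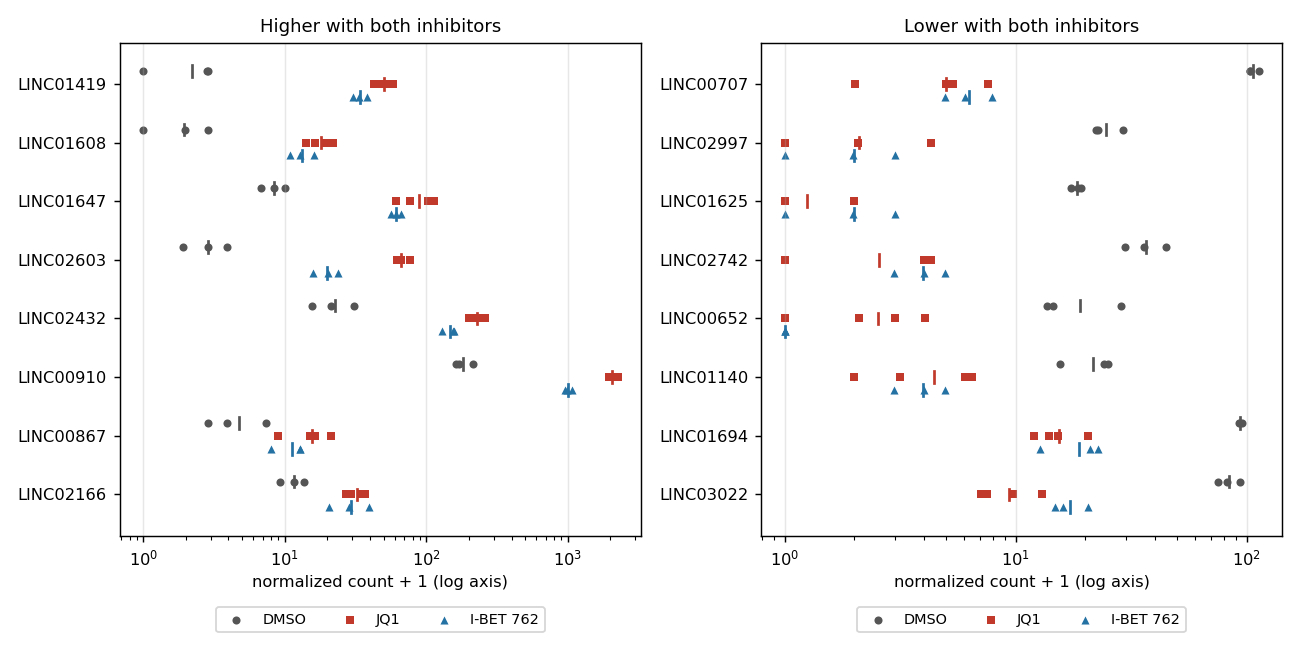
Normalized count plus 1 in each library (x axis, log scale) of the 8 LINC RNAs that rose most and the 8 that fell most with both inhibitors; each point is a library (grey DMSO, n = 3; red JQ1, n = 4; blue I-BET 762, n = 3) and the short line is the group mean. In all 16 RNAs every treated library lies on one side of every DMSO library, as the rule for naming them required.

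LINC00707 (ENSG00000238266.3, chromosome 10, 6779549 to 6842906, plus strand) showed the largest fitted fall with JQ1. This RNA has been described as promoting growth in several carcinomas. Its exons overlap those of unnamed genes on the same strand, so that reads of these genes cannot be fully separated. LINC00707 had 103, 112 and 103 normalized counts in the DMSO libraries, 6.59, 4.35, 4.002 and 1.01 with JQ1 and 3.94, 5.01 and 6.89 with I-BET 762. No treated library came near the DMSO libraries, and the fitted log2 fold changes were -4.57 ± 0.40 (SE) and -4.11 ± 0.43 (SE), with no test because the level limit was met only through the DMSO libraries. LINC00706, which begins close by and is read from the other strand, had 13.6, 14.8 and 10.9 normalized counts in the DMSO libraries, 1.10, 1.09, 1.0004 and 1.01 with JQ1 and 2.95, 2.01 and 1.97 with I-BET 762, at least 3.97-fold lower with JQ1 and at least 4.35-fold lower with I-BET 762. The nearest coding gene of both, PRKCQ, a kinase of the protein kinase C family 198879 and 199248 bases away, went from 167 ± 10.9 normalized counts (SD, n = 3) with DMSO to 104 ± 15.1 (n = 4) with JQ1 and 119 ± 17.4 (n = 3) with I-BET 762. PRKCQ was a DEG with JQ1 (log2 fold change -0.68) and passed the p-value but not the fold limit with I-BET 762 (-0.50).

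For 3 further RNAs every JQ1 and I-BET 762 library held at most 3 reads. LINC02997 on chromosome 5 had 28.1, 21.3 and 21.8 normalized counts in the DMSO libraries, 3.30, 1.09, 0 and 0 with JQ1 and 0.984, 2.01 and 0 with I-BET 762, at least 7.20-fold lower with JQ1 and 7.89-fold lower with I-BET 762. LINC01625 on chromosome 6 had 16.5, 17.6 and 18.2 normalized counts in the DMSO libraries, 0, 0, 1.0004 and 0 with JQ1 and 0, 2.01 and 0.984 with I-BET 762, at least 5.28-fold and 5.79-fold lower. LINC00652 on chromosome 20 had 13.6, 27.7 and 12.7 normalized counts in the DMSO libraries, 1.10, 0, 2.001 and 3.04 with JQ1 and 0, 0 and 0 with I-BET 762, at least 5.46-fold and 5.99-fold lower. In these 3 RNAs the DMSO libraries and the treated libraries were apart, and no order between the inhibitors was detectable at this depth. LINC02742 on chromosome 11 had 34.9, 28.7 and 43.7 normalized counts in the DMSO libraries, 3.30, 0, 3.001 and 0 with JQ1 and 3.94, 3.01 and 1.97 with I-BET 762, at least 10.8-fold lower with JQ1. LINC01140 on chromosome 1 had 24.2, 23.1 and 14.6 normalized counts in the DMSO libraries, 5.49, 2.18, 1.0004 and 5.07 with JQ1 and 3.94, 3.01 and 1.97 with I-BET 762. Exons of LINC01140 overlap an unnamed gene on the same strand, so that reads of these genes cannot be fully separated.

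LINC01694 and LINC03022 fell from higher levels, and exons of both overlap another gene on the opposite strand. LINC01694, on chromosome 21 near the folate carrier gene SLC19A1, had 94.9, 92.5 and 91.9 normalized counts in the DMSO libraries, 10.99, 19.6, 13.01 and 14.2 with JQ1 and 21.6, 20.1 and 11.8 with I-BET 762, with log2 fold changes of -2.64 ± 0.26 (SE, limma adjusted p = 1.48e-07) and -2.36 ± 0.27 (SE, limma adjusted p = 1.99e-06). LINC03022, whose exons overlap an unnamed gene on the opposite strand, had 92.98, 73.96 and 80.99 normalized counts in the DMSO libraries, 8.79, 6.53, 12.01 and 6.09 with JQ1 and 19.7, 15.04 and 13.8 with I-BET 762. The inhibitors overlapped each other in LINC01694 and not in LINC03022, where every JQ1 library was below every I-BET 762 library and the difference was -0.90 (95% interval -1.48 to -0.33, limma adjusted p = 0.0218).

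Promoter sequences were set beside these changes, because BET proteins act at promoters and a reader may ask what the start sites of RNAs that rose and fell look like. RefSeq (GRCh38.p14) windows from 250 bases before to 50 bases after the start were found for 126 of the 186 LINC RNAs. Given here are 4 of them, from RNAs named above that rose or fell with both inhibitors and whose RefSeq and Gencode starts lay within 500 bases of each other. They are the first 2 in each direction, ranked by the smaller of the 2 absolute log2 fold changes. LINC01419, LINC01608 and any other RNA of their chromosome were left out of this choice. Each is written 5′ to 3′ on the strand of the gene, and capitals mark CG dinucleotides.
LINC02603 (chr9:94259262-94259561, minus strand): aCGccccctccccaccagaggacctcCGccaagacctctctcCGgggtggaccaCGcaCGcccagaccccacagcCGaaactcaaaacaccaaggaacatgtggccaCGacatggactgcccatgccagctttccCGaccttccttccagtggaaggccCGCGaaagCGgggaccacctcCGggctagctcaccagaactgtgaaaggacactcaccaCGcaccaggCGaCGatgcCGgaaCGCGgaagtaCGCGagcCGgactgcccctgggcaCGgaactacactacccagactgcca
LINC00910 (chr17:43388849-43389148, minus strand): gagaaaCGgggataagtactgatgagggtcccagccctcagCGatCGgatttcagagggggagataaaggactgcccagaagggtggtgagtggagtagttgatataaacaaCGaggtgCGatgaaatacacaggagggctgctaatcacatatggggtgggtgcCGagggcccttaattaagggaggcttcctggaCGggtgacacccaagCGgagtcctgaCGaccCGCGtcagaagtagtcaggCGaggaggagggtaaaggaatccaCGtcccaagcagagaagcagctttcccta
LINC00652 (chr20:18794535-18794834, minus strand): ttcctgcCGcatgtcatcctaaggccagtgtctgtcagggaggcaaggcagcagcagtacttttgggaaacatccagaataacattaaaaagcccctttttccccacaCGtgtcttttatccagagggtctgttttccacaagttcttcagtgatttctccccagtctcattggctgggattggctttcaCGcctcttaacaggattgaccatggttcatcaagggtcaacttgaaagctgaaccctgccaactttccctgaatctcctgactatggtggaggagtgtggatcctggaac
LINC01140 (chr1:87129515-87129814, plus strand): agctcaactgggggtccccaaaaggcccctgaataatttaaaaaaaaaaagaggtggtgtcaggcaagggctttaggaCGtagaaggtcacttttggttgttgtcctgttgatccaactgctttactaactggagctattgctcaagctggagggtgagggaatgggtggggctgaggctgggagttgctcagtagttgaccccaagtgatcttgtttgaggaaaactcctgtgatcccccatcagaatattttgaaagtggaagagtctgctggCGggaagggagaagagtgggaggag
The windows of the risers LINC02603 and LINC00910 held 22 and 13 CG dinucleotides, those of the fallers LINC00652 and LINC01140 held 3 and 2. The GC content was 64% in LINC02603, 55% in LINC00910, 48.7% in LINC00652 and 49.3% in LINC01140. The window of LINC00910 holds TATAAA. That of LINC00652 holds the E-box CACGTG, and CCAAT on the strand opposite to the one printed.

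The medians of all windows found, which include those printed above, differed in the same direction. The 12 LINC RNAs up with both inhibitors had a median of 24.5 CG dinucleotides per window (quartiles 10.5 and 31.8) and a GC content of 64.2%. The 42 that were down with both had a median of 6 (3 and 15.5) and 52.2%, and the 48 called with neither had 15.5 (3 and 24.3) and 59.3%. Over all 35116 RefSeq windows the median was 14 (4 and 28) and 58.7%. The quartiles of the groups overlap and no test was made. Searched on both strands, the letters GGGCGG were in 50% of windows up with both, 31.0% of those down with both and 45.0% of all RefSeq windows. TATAAA was in 8.33%, 16.7% and 11.5%, and CCAAT in 33.3%, 38.1% and 34.6%. CACGTG was in 0 of the 12 windows up with both, 9.52% of those down with both and 7.26% of all, and TGACTCA in 0 of the 12, in 2.38% and in 4.95%. In the windows of RNAs called with neither, GGGCGG was in 58.3%, TATAAA in 8.33%, CCAAT in 52.1%, CACGTG in 4.17% and TGACTCA in 8.33%. A match of letters is a description of the window and shows no binding.

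JQ1 and I-BET 762 were then compared directly, at the same dose and time. In this comparison 28 LINC RNAs were DEGs between the inhibitors (15.1%), beside 5.31% of all tested symbols. Of these, 23 were lower with JQ1, beside 3.59% of all tested symbols, and 5 were higher, beside 1.73%. This count depends on single I-BET 762 libraries: it was 16 without replicate 21 and 17 without replicate 23. Of the 23 lower RNAs, 12 were down with both inhibitors against DMSO, 9 were down with JQ1 alone and 2 were called with neither. Of the 5 higher RNAs, 3 were up with both. For the 158 LINC RNAs not called between the inhibitors, the 95% interval stayed within 1.5-fold in either direction in 42 and reached past it in 116.

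Among the RNAs lower with JQ1, LINC01203 (ENSG00000226985.7, chromosome X, 13333952 to 13403035, plus strand) differed most. It had 85.2, 68.4 and 92.8 normalized counts in the DMSO libraries, 3.30, 7.62, 6.003 and 5.07 with JQ1 and 25.6, 22.1 and 27.6 with I-BET 762. The 3 groups were separate, and the difference between the inhibitors was -2.04 (95% interval -2.63 to -1.46, limma adjusted p = 7.24e-05) on the log2 scale. LINC02154, which lies on the other side of the same coding gene, ATXN3L, had 74.6, 71.2 and 51.9 normalized counts in the DMSO libraries, 4.40, 15.2, 13.01 and 11.2 with JQ1 and 22.6, 19.05 and 19.7 with I-BET 762, with a difference of -0.95 (95% interval -1.66 to -0.25, limma adjusted p = 0.0435). LINC02240, on chromosome 5, had 18.4, 17.6 and 19.1 normalized counts in the DMSO libraries, 1.10, 2.18, 5.002 and 3.04 with JQ1 and 10.8, 10.03 and 17.7 with I-BET 762. Its I-BET 762 libraries overlapped the DMSO libraries and its JQ1 libraries did not, and the inhibitors differed by -1.92 (95% interval -2.78 to -1.05, limma adjusted p = 0.00283). Exons of LINC02240 overlap another gene on the same strand, so that its reads cannot be fully separated. LINC01600 had 24.2, 23.1 and 20.02 normalized counts in the DMSO libraries, 4.40, 1.09, 2.001 and 1.01 with JQ1 and 6.89, 5.01 and 9.84 with I-BET 762 and a difference of -1.48 (95% interval -2.41 to -0.55, limma adjusted p = 0.0203). The test no longer passed for LINC01600 with only the 2 inhibitor groups in the fit (adjusted p = 0.0573), without I-BET 762 replicate 21 (0.0604) or without I-BET 762 replicate 23 (0.0969).

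LINC00525 lies inside PKD1L1 on chromosome 7 and is one of 2 LINC RNAs nearest to TNS3, which encodes the adhesion protein tensin 3. It had 19.4, 13.9 and 22.8 normalized counts in the DMSO libraries, 1.10, 1.09, 4.002 and 7.10 with JQ1 and 14.8, 8.02 and 10.8 with I-BET 762, and the inhibitors differed by -1.70 (95% interval -2.74 to -0.67, limma adjusted p = 0.0169). The adjusted p of LINC00525 was 0.0851 without I-BET 762 replicate 21 and 0.0549 without replicate 23. LINC01447, the other RNA near TNS3, had 3.87, 4.62 and 4.55 normalized counts in the DMSO libraries, 8.79, 10.9, 10.004 and 16.2 with JQ1 and 7.87, 3.01 and 4.92 with I-BET 762. Only JQ1 libraries of LINC01447 reached 10, which made it a member, so its higher level with JQ1 is a description with no test. TNS3 had 5463 ± 366 normalized counts (SD, n = 3) with DMSO, 818 ± 73.2 (n = 4) with JQ1 and 1930.1 ± 34.03 (n = 3) with I-BET 762.

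The LINC RNAs nearest to MEIS1, a homeobox gene active in mesenchyme, also separated the inhibitors. LINC01873, 50146 bases from the MEIS1 start, had 57.1, 69.3 and 75.5 normalized counts in the DMSO libraries, 13.2, 8.70, 21.01 and 13.2 with JQ1 and 24.6, 28.1 and 41.3 with I-BET 762. LINC01798, at 140578 bases, had 138, 109 and 103 normalized counts in the DMSO libraries, 47.2, 54.4, 66.03 and 30.4 with JQ1 and 126, 95.2 and 141 with I-BET 762. JQ1 libraries of LINC01798 were all below those of DMSO, the I-BET 762 libraries overlapped those of DMSO, and the inhibitors differed by -1.30 (95% interval -1.78 to -0.83, limma adjusted p = 5.61e-04). LINC01797, at 269800 bases and overlapping LINC01798 on the opposite strand, had 10.7, 13.9 and 10.9 normalized counts in the DMSO libraries, 2.198, 10.9, 7.003 and 3.04 with JQ1 and 11.8, 11.03 and 17.7 with I-BET 762 and a difference of -1.27 (95% interval -2.21 to -0.32, limma adjusted p = 0.0454), with JQ1 and DMSO libraries that overlapped. MEIS1 itself had 3047 ± 112 normalized counts (SD, n = 3) without inhibitor, 1566 ± 60.4 (n = 4) with JQ1 and 1972 ± 73.5 (n = 3) with I-BET 762. In LINC01873, 47.6% of the exon stretches had an exact copy elsewhere in the genome, so its reads may have been lost or shared.

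The RNAs higher with JQ1 than with I-BET 762 were LINC02603, LINC01315, LINC00910, LINC01772 and LINC02432. LINC02603 differed by 1.77 (95% interval 1.14 to 2.39, limma adjusted p = 4.46e-04), LINC00910 by 1.02 (95% interval 0.84 to 1.21, limma adjusted p = 1.22e-06) and LINC02432 by 0.64 (95% interval 0.24 to 1.05, limma adjusted p = 0.0207). LINC01315, on chromosome 22 near TCF20, had 52.3, 52.7 and 50.96 normalized counts in the DMSO libraries, 199.99, 154, 171 and 97.4 with JQ1 and 67.9, 58.1 and 52.2 with I-BET 762. It rose with JQ1 (1.52 ± 0.20 (SE, limma adjusted p = 4.61e-06)), whereas its change with I-BET 762 was 0.18 ± 0.21 (SE, limma adjusted p = 0.482) and those libraries overlapped DMSO. The difference between the inhibitors for LINC01315 was 1.34 (95% interval 0.91 to 1.76, limma adjusted p = 1.88e-04). LINC01772 had 50.4, 24.04 and 31.9 normalized counts in the DMSO libraries, 24.2, 27.2, 20.01 and 22.3 with JQ1 and 9.84, 15.04 and 10.8 with I-BET 762, and fell with I-BET 762 (-1.45 ± 0.30 (SE, limma adjusted p = 5.48e-04)), while the JQ1 libraries overlapped those of DMSO. It was also a DEG with JQ1 with equal totals (-0.70, limma adjusted p = 0.0373) and without DMSO replicate 14 (-0.76, limma adjusted p = 0.0369). The JQ1 and I-BET 762 libraries of LINC01772 differed by 0.93 (95% interval 0.34 to 1.53, limma adjusted p = 0.0213), a call lost without I-BET 762 replicate 21 (adjusted p = 0.0884), without replicate 23 (0.0711) or with every symbol above 0 in the test (0.0538).

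**Figure D4:**
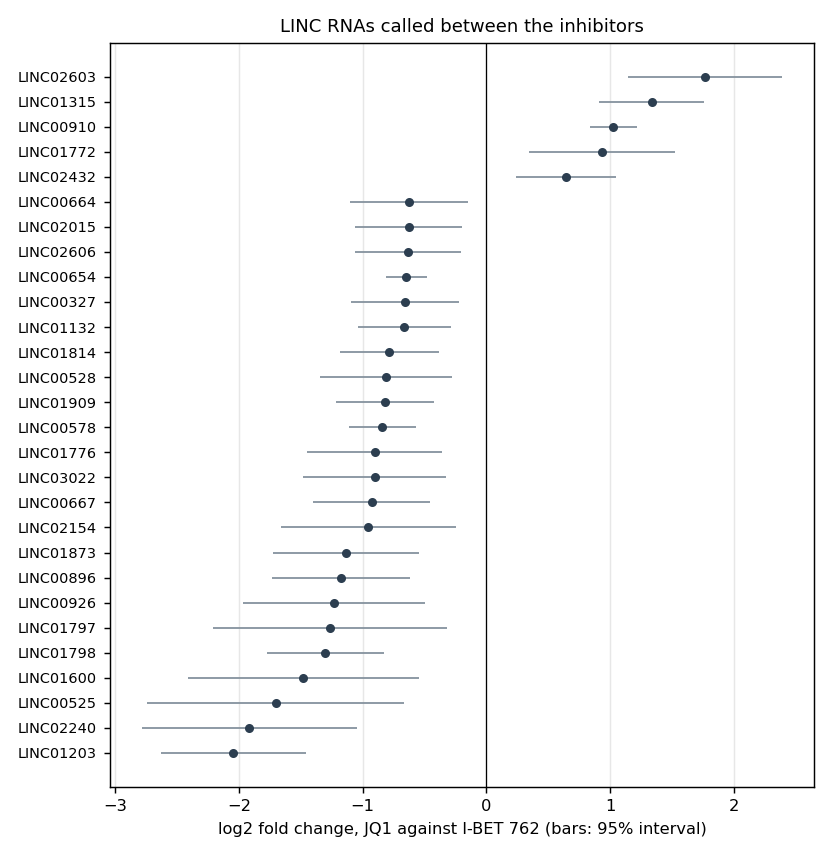
Log2 fold change of JQ1 against I-BET 762 (x axis) with its 95% interval for the 28 LINC RNAs called between the inhibitors (y axis); points right of 0 were higher with JQ1 (5) and points left of 0 lower (23). LINC02603 and LINC01203 lie at the ends.

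A call with one inhibitor alone did not mean that the inhibitors differed. Of the 36 LINC RNAs called with JQ1 alone, 10 were also called between the inhibitors and 26 were not. LINC01426 had 11.6, 12.02 and 13.7 normalized counts in the DMSO libraries, 3.30, 0, 0 and 0 with JQ1 and 7.87, 1.003 and 5.91 with I-BET 762, a fall with JQ1 to at least 3.77-fold lower. The I-BET 762 libraries of LINC01426 were below those of DMSO as well (-1.43 ± 0.71 (SE)), given with no test because the level limit was met only through the DMSO libraries. With a pseudocount of 5, in limma-voom and with only the 2 groups in the fit, LINC01426 did not stay among those called with JQ1 alone. The inhibitors differed by -1.79 (95% interval -3.20 to -0.37, limma adjusted p = 0.0588). LINC00933, whose symbol matched several annotated genes, had 18.4, 11.1 and 15.5 normalized counts in the DMSO libraries, 1.10, 0, 4.002 and 3.04 with JQ1 and 1.97, 10.03 and 10.8 with I-BET 762 and a difference of -1.51 (95% interval -2.83 to -0.20, limma adjusted p = 0.0823). LINC00921, one of 2 called with I-BET 762 alone, had 14.5, 21.3 and 20.02 normalized counts in the DMSO libraries, 7.69, 8.70, 12.01 and 14.2 with JQ1 and 9.84, 5.01 and 9.84 with I-BET 762. Its log2 fold change was -0.77 ± 0.35 (SE, limma adjusted p = 0.0565) with JQ1 and -1.12 ± 0.37 (SE, limma adjusted p = 0.0153) with I-BET 762, and it was a DEG with JQ1 under 6 alternative settings and with 2 libraries left out one at a time. Its I-BET 762 call was lost without DMSO replicate 14 (adjusted p = 0.0563) and without I-BET 762 replicate 22 (0.0767).

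A list of 34 LINC RNAs with a role described in other work was followed by name. Of these, 21 were tested, 6 were in the values but too low and 7 had no symbol there. The list was chosen with earlier results of these data known. With JQ1, 7 rose (33.3%), beside 13.3% of all tested symbols and 16.1% of the 186 LINC RNAs, and 10 fell (47.6%), beside 22.8% and 46.8%. With I-BET 762, 6 rose (28.6%), beside 8.96% and 10.8% in the same order, and 7 fell (33.3%), beside 17.9% and 33.9%. The shares that fell were thus close to those of the 186 LINC RNAs. Of the 21, 3 met the level limit on 1 side only (LINC01419, LINC00707 and LINC01139). The median log2 fold change of the 21 was -0.44 with JQ1 and -0.51 with I-BET 762. Some pairs of symbols have the same value in all libraries, among them LINC00511 and LINC00673, which are 1 measurement. With this pair taken once, the list had 20 tested RNAs, of which 6 rose with JQ1 and 5 with I-BET 762. In all, 11 LINC RNAs shared their values with another symbol, and the 186 members held 183 distinct sets of values.

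Among the risers of this list, LINC00511 and LINC00673 had 19.4, 21.3 and 20.02 normalized counts in the DMSO libraries, 78.02, 67.5, 65.03 and 82.2 with JQ1 and 46.2, 44.1 and 66.9 with I-BET 762. LINC00673 is known for binding the phosphatase PTPN11 and as a risk locus of pancreatic cancer, and LINC00511 has been described as tumour-promoting in breast and lung cancer. The treated libraries were all above DMSO, with log2 fold changes of 1.80 ± 0.19 (SE, limma adjusted p = 3.79e-07) and 1.31 ± 0.20 (SE, limma adjusted p = 4.19e-05). LINC00467 had 409, 377 and 347 normalized counts in the DMSO libraries, 666, 854, 806 and 696 with JQ1 and 660.3, 667 and 643 with I-BET 762, and it rose by 0.99 ± 0.09 (SE, limma adjusted p = 5.05e-08) and 0.80 ± 0.09 (SE, limma adjusted p = 2.42e-06) on the log2 scale. LINC00472, described as a tumour suppressor in breast cancer, had 25.2, 23.1 and 18.2 normalized counts in the DMSO libraries, 52.7, 39.2, 34.02 and 40.6 with JQ1 and 42.3, 33.1 and 47.3 with I-BET 762. It rose with both inhibitors, at 0.87 and 0.85 on the log2 scale.

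The fallers of the list included RNAs described as oncogenic. LINC02381, which lies in the region of the HOXC genes on chromosome 12, had 519, 512 and 468 normalized counts in the DMSO libraries, 199.99, 202, 186 and 202 with JQ1 and 226, 246 and 254 with I-BET 762. The groups were separate, with log2 fold changes of -1.33 ± 0.09 (SE, limma adjusted p = 9.95e-10) and -1.04 ± 0.09 (SE, limma adjusted p = 8.43e-08). LINC00857, which starts 1800 bases from ANXA11, had 141, 163 and 149 normalized counts in the DMSO libraries, 57.1, 58.8, 55.02 and 45.6 with JQ1 and 90.5, 70.2 and 54.1 with I-BET 762, and 31.3% of its exon stretches had a copy elsewhere. LINC01503, known as an RNA driven by a super-enhancer in squamous cell carcinoma, had 35.8, 41.6 and 28.2 normalized counts in the DMSO libraries, 7.69, 13.1, 10.004 and 14.2 with JQ1 and 14.8, 3.01 and 11.8 with I-BET 762. LINC01503 fell by 1.58 ± 0.41 (SE, limma adjusted p = 0.00285) with JQ1 and by 1.94 ± 0.44 (SE, limma adjusted p = 0.00131) with I-BET 762 on the log2 scale.

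LINC01139, also called LINK-A and described in signalling to HIF1A, had 21.3, 15.7 and 19.1 normalized counts in the DMSO libraries, 8.79, 3.26, 4.002 and 7.10 with JQ1 and 3.94, 3.01 and 3.94 with I-BET 762. LINC01089, a suppressor of mammary cell migration also named LIMT, starts 103 bases from SETD1B and had 52.3, 53.6 and 49.1 normalized counts in the DMSO libraries, 17.6, 13.1, 18.01 and 21.3 with JQ1 and 25.6, 23.1 and 20.7 with I-BET 762. The treated libraries of both were below those of DMSO, LINC01139 at -1.61 and -2.09 and LINC01089 at -1.53 and -1.13 on the log2 scale. Exons of LINC01089 overlap RHOF on the same strand, so that reads of these genes cannot be fully separated. LINC00908, which encodes a small peptide in breast cancer, shared its values with LINC00683 and changed by -1.07 and -0.75 on the log2 scale. The I-BET 762 call of LINC00908 was lost without I-BET 762 replicate 23 (adjusted p = 0.0623).

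A further 3 RNAs of the list were DEGs with JQ1 alone and lower. LINC00665 had 589.8, 586 and 647 normalized counts in the DMSO libraries, 312, 329, 384 and 402 with JQ1 and 418, 413 and 416 with I-BET 762. LINC01234 had 630.5, 684 and 673 normalized counts in the DMSO libraries, 363, 461, 399 and 386 with JQ1 and 512, 505 and 487 with I-BET 762. LINC00667 had 57.1, 67.5 and 77.4 normalized counts in the DMSO libraries, 23.1, 16.3, 27.01 and 32.5 with JQ1 and 45.3, 46.1 and 48.2 with I-BET 762. With equal totals, LINC00665 (-0.64, limma adjusted p = 9.36e-05) and LINC00667 (-0.61, limma adjusted p = 0.0462) were DEGs with I-BET 762 as well. For each of these 3, every treated library was below every DMSO library. Of the 3, LINC00667 alone was also called between the inhibitors (-0.93 (95% interval -1.40 to -0.45, limma adjusted p = 0.00631)), while LINC00665 differed by -0.23 (95% interval -0.42 to -0.04, limma adjusted p = 0.0719) and LINC01234 by -0.32 (95% interval -0.50 to -0.15, limma adjusted p = 0.00874), which is less than 1.5-fold. LINC00662, the LINC RNA with the highest mean count, was in the list but no DEG. It had 2063, 1909 and 2020.3 normalized counts in the DMSO libraries, 1344, 1533, 1543 and 1482 with JQ1 and 1369, 1368 and 1385 with I-BET 762, a lower level by less than 1.5-fold with a limma adjusted p of 3.85e-06 with JQ1 and 1.44e-06 with I-BET 762.

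Position in the genome was not used in choosing the members. Of the 186 LINC RNAs, 172 matched 1 annotated gene by symbol, 4 matched several and 10 matched none, and all matched genes were typed as lncRNA. The matched members came from 23 chromosomes and had 371 to 33198 exon bases, with a median of 3496. Exons of 62 overlapped another gene on the opposite strand and those of 26 one on the same strand. Counts of all these RNAs are uncertain, also where this was not said above. For classes that exclude each other, each RNA was put in the first that applied: 13 began within 2 kb of a coding start on the opposite strand, 25 others had exons overlapping another gene on the same strand, 46 others on the opposite strand, 7 others lay inside another gene and 81 did none of these. With JQ1 the share of DEGs was 69.2%, 56%, 69.6%, 57.1% and 65.4% in these classes, and with I-BET 762 53.8%, 36%, 52.2%, 42.9% and 45.7%. The median log2 fold change with JQ1 was negative in all 5 classes, from -0.29 for those inside another gene to -0.84 for those with an exon overlap on the opposite strand. With I-BET 762 it was 0.03 for those inside another gene and negative in the other 4, from -0.15 to -0.50. LINC RNAs over 100 kb from a coding start were DEGs in 76% with JQ1 (38 of 50), against 60.7% of those at 10 to 100 kb (54 of 89) and 60.6% of those nearer (20 of 33), again as a description.

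The nearest coding gene was itself tested for 134 LINC RNAs, with 125 distinct genes. Among the 66 of them that fell with JQ1, the neighbour fell in 24 and rose in 5. Among the 24 that rose with JQ1, the neighbour rose in 5 and fell in 10. Among the 44 that were not called, the neighbour rose in 5 and fell in 6. With I-BET 762, the neighbour fell in 12 and rose in 2 of 45 pairs with a falling LINC RNA, and fell in 5 and rose in 2 of 16 pairs with a rising one. Of 73 pairs with a LINC RNA not called with I-BET 762, the neighbour fell in 12 and rose in 7. Neighbours were thus lower more often than higher beside risers, fallers and uncalled LINC RNAs. The same held for all tested symbols, with 22.8% lower and 13.3% higher with JQ1, and 17.9% lower and 8.96% higher with I-BET 762. With JQ1 the neighbour was lower for 36.4% of fallers, 41.7% of risers and 13.6% of uncalled LINC RNAs. Of all tested symbols, 22.8% were lower with JQ1. With I-BET 762 these shares were, in the same order, 26.7%, 31.25%, 16.4% and 17.9%. They were not tested against each other. Near SAMD11 the members went 3 ways: LINC02593, 2907 bases from its start, had 61.98, 38.8 and 56.4 normalized counts in the DMSO libraries, 9.89, 5.44, 15.01 and 11.2 with JQ1 and 15.7, 17.04 and 12.8 with I-BET 762, LINC01128 had 365, 406 and 396 normalized counts in the DMSO libraries, 859, 830.2, 911 and 960.5 with JQ1 and 733, 746 and 771 with I-BET 762, and LINC00115 had 77.5, 56.4 and 76.4 normalized counts in the DMSO libraries, 64.8, 41.3, 66.03 and 69.98 with JQ1 and 59.04, 63.2 and 89.6 with I-BET 762. LINC02593 fell and LINC01128 rose with both inhibitors, the groups of LINC00115 overlapped, and SAMD11 went from 285 ± 39.3 normalized counts (SD, n = 3) with DMSO to 62.7 ± 8.15 (n = 4) with JQ1 and 63.6 ± 15.8 (n = 3) with I-BET 762.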

How the data were processed

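RNA-seq was performed in SK-UT-1 cells with strand-specific total RNA libraries on an Illumina NovaSeq. According to the labels and methods, the authors trimmed reads with Trimmomatic, aligned them to hg38 with HISAT2 2.2.1, counted them on Gencode V41 genes with featureCounts 2.0.3, normalized the counts with DESeq2 and left out outlier samples. As deposited, each value is a log2 normalized count, with 1 added before the logarithm, for 1 symbol in 1 library. How gene identifiers were merged into symbols and which strand setting was used are not given in the sources used here. DMSO replicate 16 and I-BET 762 replicate 24 were not analysed here, and 0 value columns were left without a sample.

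Within each library, 99.73% to 99.77% of the values were whole multiples of 1 step to within 0.01 reads, which gave the reads behind each value and a depth of 35564586 to 39658989 reads. The 12 pairs of replicates differed by more than counting error (mean chi-square 2.77 to 22.2 over genes), and 0 pairs held identical values. Tests used limma 3.58.1 (R 4.3.3) on these log2 values, with all 10 libraries in 1 model, an intensity trend and Benjamini-Hochberg adjustment over the 14839 symbols with at least 10 normalized counts in at least 3 libraries. A call needed an adjusted p-value under 0.05 and a change over 1.5-fold. A group with at most 3 reads in every library was set at that floor, and the fold given as a bound. The code was tested on simulated data. Tables were made with Python 3.11.15, numpy 2.4.6 and pandas 2.3.3, and the plots with matplotlib 3.10.9. Positions are those of Gencode V44 on GRCh38, the same build as the authors' hg38.

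The members and gene lists were chosen with earlier results of these data known. Named were LINC01419, the 8 largest changes in each direction shared by both inhibitors with no overlap with DMSO, the 4 largest differences between the inhibitors in each direction, the 4 largest changes called with 1 inhibitor alone (2 for I-BET 762), the 6 highest levels per kilobase of exon, and the called members of the list with described roles. RNAs that share a nearest coding gene, LINC00662 and the comparison RNAs MALAT1, NEAT1 and HOTAIR were named after their values were seen. The alternatives were pseudocounts of 0.5 and 5, 3 other filters, 2 scalings, no trend, limma-voom on the recovered reads, only the 2 groups compared, other fold limits, and each library left out in turn.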

Additional observations from a re-analysis of the deposited data

Results flagged for a closer look

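In the group of 4 JQ1 libraries, 1 library can be compared with the range of the others, and this was done for the 42 named LINC RNAs, where chance alone marks about 1 in 20. It marked 3 of them. LINC01625 had 1.0004 normalized counts in JQ1 replicate 19 and 0 in the other 3 JQ1 libraries, a difference of 1 read. LINC01426 had 3.30 normalized counts in JQ1 replicate 17 and 0 in the other 3, a difference of 3 reads. LINC02381 had 186 normalized counts in JQ1 replicate 19, while the nearest of the other 3 JQ1 libraries had 199.98, and all 4 stood below the DMSO libraries. The groups of 3 libraries were not examined in this way.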

How the results depend on the processing

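Of 92 log2 fold changes of named LINC RNAs, 79 kept their direction and their side of the threshold under every alternative run. Of the others, LINC00205 with JQ1 turned to -0.074 with equal totals (adjusted p = 0.387), a scaling that moved the median of all tested symbols with JQ1 to -0.18, and the cause was not tested. The number of LINC DEGs depended most on the filter and on the fold limit. With every symbol above 0 tested there were 186 with JQ1 and 127 with I-BET 762, because more LINC symbols entered. With a mean of at least 100 normalized counts there were 18 with JQ1, 10 with I-BET 762, 5 between the inhibitors and 10 shared, because fewer entered. With a fold change over 2, 12 remained between the inhibitors. Leaving out 1 library at a time gave 110 to 119 LINC DEGs with JQ1, 75 to 84 with I-BET 762, 16 to 32 between the inhibitors and 71 to 82 shared. The lowest counts between the inhibitors were 16 and 17, without I-BET 762 replicates 21 and 23, which leave 2 I-BET 762 libraries. Another 4 counts were chosen after seeing the data: without the LINC RNAs that share their values, overlap another gene's exons, have copied exon stretches or passed the filter on 1 side, 58.6% to 62.9% were called with JQ1 and 40.1% to 44.05% under I-BET 762. No paired analysis was possible because the replicate numbers 13 to 24 are all different. Differences of 3 reads or less could not be resolved at this depth.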
